A study of Mus musculus with 9 samples.

Results

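The 41 genes described here act when a cell divides. They form a named list of mitosis genes, and each gene was represented by the brightest of its probes. No measured value enters the rule that lists them, but the list was chosen with earlier results of these data known. Counts and medians over the list are therefore descriptions and not tests. All 41 were present among the 19698 genes that had a symbol and a probe passing the background filter. Lung RNA from male C57BL/6 mice, 10 weeks old, was hybridized to 9 single-color arrays, of which 4 were labeled control and 5 were labeled irradiated left lung tissue. The left lung had been given radiation once, and the mice were anesthetized with zoletil and rompun during irradiation. The labels list this anesthesia for control samples too, and whether control mice were sham-treated is not given in the sources used here. For none of the arrays do the labels state the dose, the region of the lung or the time. According to the methods, RNA of replicate experiments at a time point was pooled before labeling, so each array stands for a pool, and the irradiated arrays can come from different times, regions or doses. The p-values below measure the spread between these pools.

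A cell enters mitosis when cyclins of the A and B type switch on the kinase Cdk1. Polo and Aurora kinases then build the spindle, kinetochores tie chromosomes to it, the spindle checkpoint holds the cell until every chromosome is attached, and the anaphase-promoting complex ends mitosis by marking cyclin B and securin for destruction. The mRNAs of these genes are made mainly in late S phase, G2 and M and are scarce in resting cells, and most cells of an adult lung are at rest. In whole tissue, fewer cells of a type and less RNA per cell cannot be told apart.

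By the marks of the scanner software, 72.8% to 89.1% of the spots per array had a signal well above background, and 0 were saturated. The 6 markers of type II alveolar cells, among them the surfactant genes, were well above background on all 9 arrays. A pair of arrays stood apart in muscle genes. On the log2 scale relative to the control mean, the 6 cardiac muscle markers averaged −5.62 on irradiated array 1, against −0.50 to 0.35 on the other irradiated arrays and −0.57 to 0.59 in controls. The 6 skeletal muscle markers averaged 5.26 on control array 3, against −1.93 to −1.64 on the other control arrays and −2.64 to −0.998 on the irradiated ones. Results that rest on these arrays are therefore also given without both of them.

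The first question was whether the mitosis genes differed between irradiated and control lung. The mean log2 intensity was higher in the irradiated arrays for 37 of the 41 genes, against 51.9% of all genes. The median difference of the 41 genes was 0.46 on the log2 scale, against 0.01 over all genes. No mitosis gene passed an adjusted p under 0.05 in limma, with adjustment over all 39303 probes, where 0.333% of all probes and 0.416% of all genes passed. The smallest adjusted p among the 41 was 0.25, for Aurka. At an unadjusted p under 0.05 in limma, 13 mitosis genes were higher and 0 were lower, against 7.37% of all genes that were higher and 4.98% that were lower at that threshold. The groups did not overlap for 1 mitosis gene, Ndc80, against 3.4% of all genes with every irradiated array above every control array, and 0 mitosis genes had every irradiated array below every control array, against 1.76% of all genes. These genes vary together from pool to pool, so their number is not a number of independent measurements. Without control array 3 and irradiated array 1, 35 genes still had the higher irradiated mean and the median difference was 0.32, with 1 gene at an unadjusted p under 0.05 and 0 past the adjusted threshold. The count of 13 was 4 without control array 3, 3 without control array 4, 6 without irradiated array 1, 5 without irradiated array 2 and 24 without irradiated array 4, and it was 1 in the authors' normalized table.

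**Figure D1:**
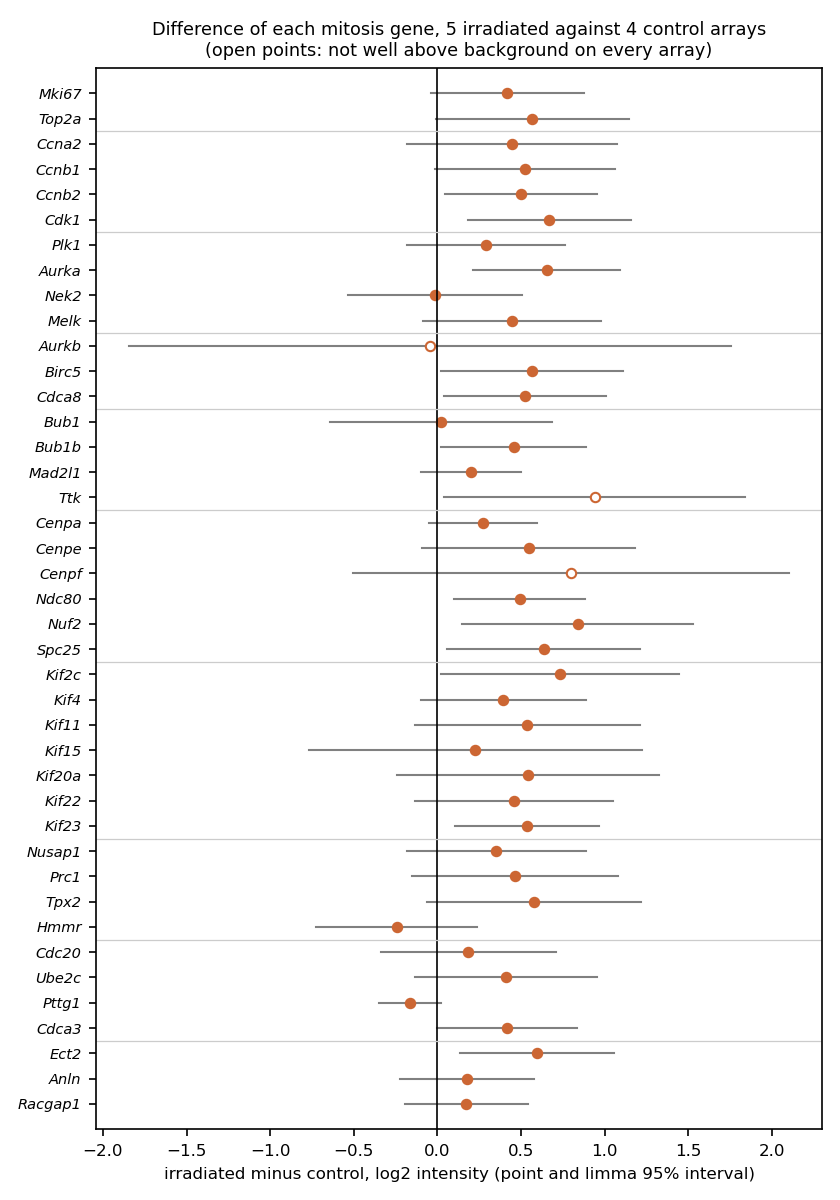
Difference between the mean of 5 irradiated and 4 control arrays for each of the 41 mitosis genes, in log2 intensity, with the limma 95% interval as a horizontal line. Open points mark genes not well above background on every array. Most points lie to the right of 0, and 4 lie to its left.

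The irradiated arrays were not alike in these genes. Relative to the control mean, the median of the 41 genes was 0.76 on irradiated array 1, 0.99 on array 2, 0.41 on array 3, −0.0092 on array 4 and 0.13 on array 5. The control arrays had medians of 0.23, 0.20, −0.18 and −0.20. Irradiated arrays 1, 2 and 3 thus lay above all control arrays, while irradiated arrays 4 and 5 lay within their range. On irradiated arrays 1, 2 and 3, respectively 37, 36 and 28 of the 41 genes were above every control array, against 28%, 20.9% and 25.5% of all genes. On irradiated array 4, 3 genes were above every control array, against 19.2% of all genes, and on irradiated array 5 it was 11 of 41, against 20.8%. Irradiated array 2 had the highest value of the 9 arrays for 24 genes and irradiated array 1 for 12. Control array 4 had the lowest value for 21 genes and control array 3 for 13. The spread was shared within groups as well: 37 genes on control array 1 and 33 on control array 2 were above their own group's mean, against 8 and 6 on control arrays 3 and 4, and against 4 and 3 on irradiated arrays 4 and 5.

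**Figure D2:**
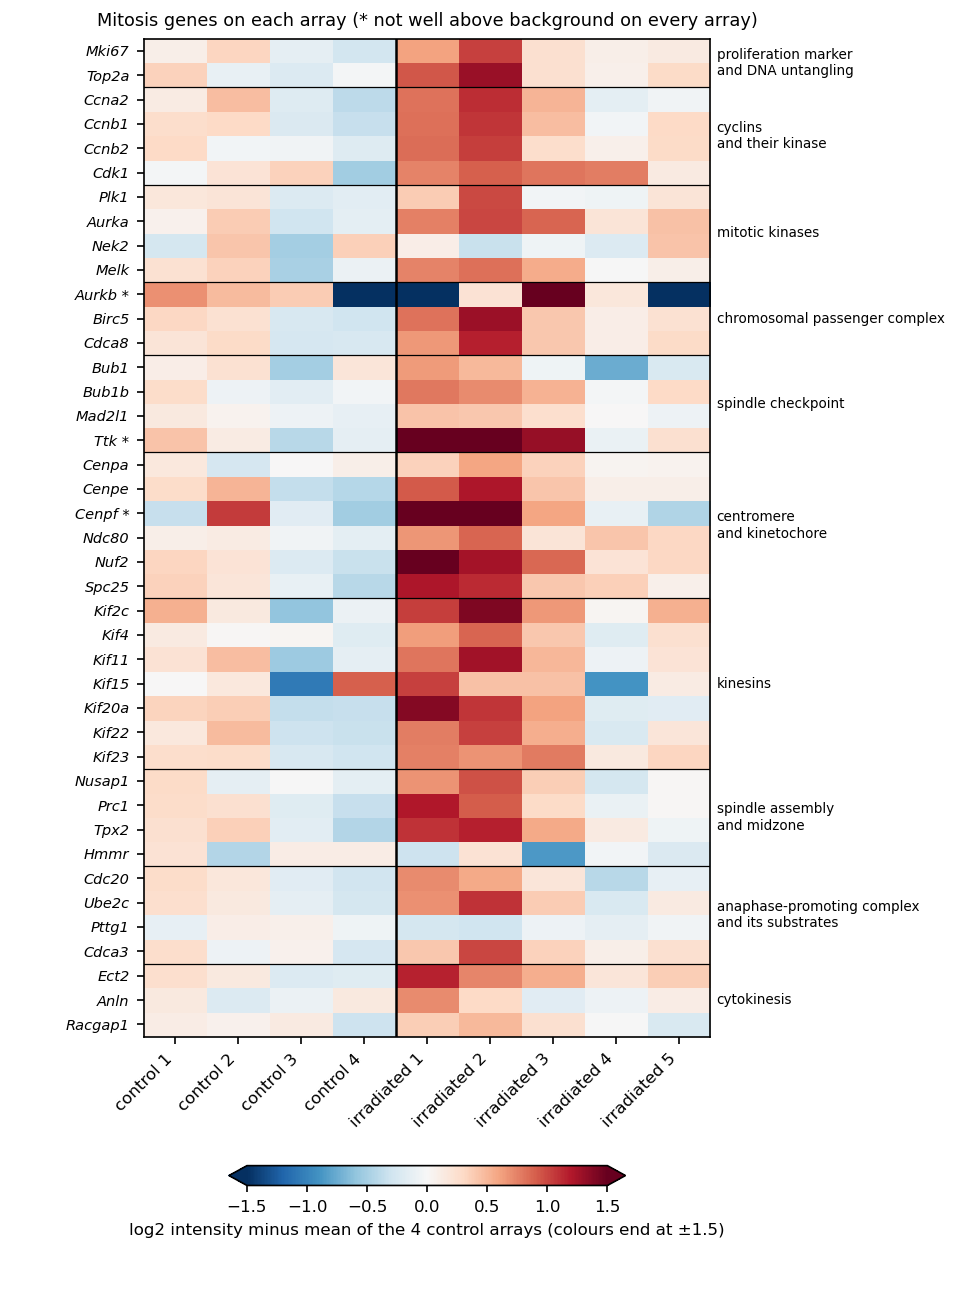
Log2 intensity of each mitosis gene (rows, ordered by role) on each of the 9 arrays (columns) minus the mean of the 4 control arrays, with red above and blue below that mean. The columns of irradiated arrays 1 and 2 are red for nearly all genes, and those of irradiated arrays 4 and 5 are pale. Asterisks mark Aurkb, Ttk and Cenpf, which at least 1 array did not measure well above background.

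**Figure D3:**
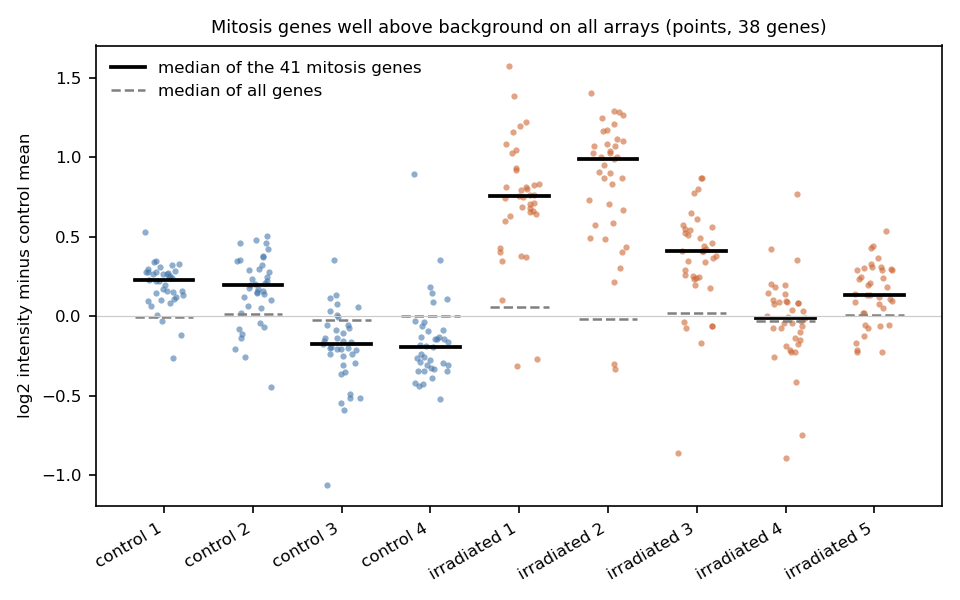
Each point is 1 of the 38 mitosis genes that were well above background on all arrays, as log2 intensity minus the control mean, with the median of all 41 (solid bar) and of all genes (dashed bar) on each array. The solid bars stand at 0.76, 0.99 and 0.41 on irradiated arrays 1, 2 and 3 and near 0 on irradiated array 4, while the dashed bars stay near 0 throughout.

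The height of the first spot row on the scan image put 4 control arrays next to 4 irradiated arrays, and the arrays of each such pair, closest to each other but not equal in height, also deviated together from their group means over all probes, with a correlation across probes of 0.20 to 0.46. Irradiated array 1, at a height of 224 in the units of the files, had no control array as a mutual nearest neighbor and lay closest to irradiated array 3, at 220.1. What the arrays of a pair share is not stated in the labels. Within the pair of control array 1 and irradiated array 2, 37 of the 41 mitosis genes were higher on the irradiated array, with a median difference of 0.74 on the log2 scale, against 46.3% of all genes. In the pair of control array 2 and irradiated array 3 it was 33 genes and a median of 0.21, against 53.7% of all genes. For control array 3 with irradiated array 4, 32 genes were higher, with a median of 0.17, against 48.2%. For control array 4 with irradiated array 5, 36 genes were higher, with a median of 0.36, against 51.2%. The median was thus above 0 in all 4 pairs, also for irradiated arrays 4 and 5, which lay within the range of the control arrays. In all 4 pairs, 24 of the 41 genes were higher on the irradiated array, against 17.9% of all genes, and 1 gene, Hmmr, was lower, against 17.3%. The fit with the pair as a fixed block used the paired arrays only and left out irradiated array 1. Its counts thus differ from those without a block in both respects. In that fit 0 mitosis genes passed the adjusted threshold in limma, against 3.82% of all genes. Their smallest adjusted p was 0.0502, for Aurka. In this fit 21 genes were higher at an unadjusted p under 0.05 in limma, against 13.2% of all genes, and 1, Hmmr, was lower, against 11.4%. With the pair as a random block, with an estimated correlation of 0.60, 5 passed, all higher, against 5.65% of all genes that passed and were higher. They were Aurka with a limma adjusted p of 0.0135, Cdk1 with 0.0162, Kif23 with 0.0266, Ect2 with 0.0391 and Nuf2 with 0.0474.

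**Figure D4:**
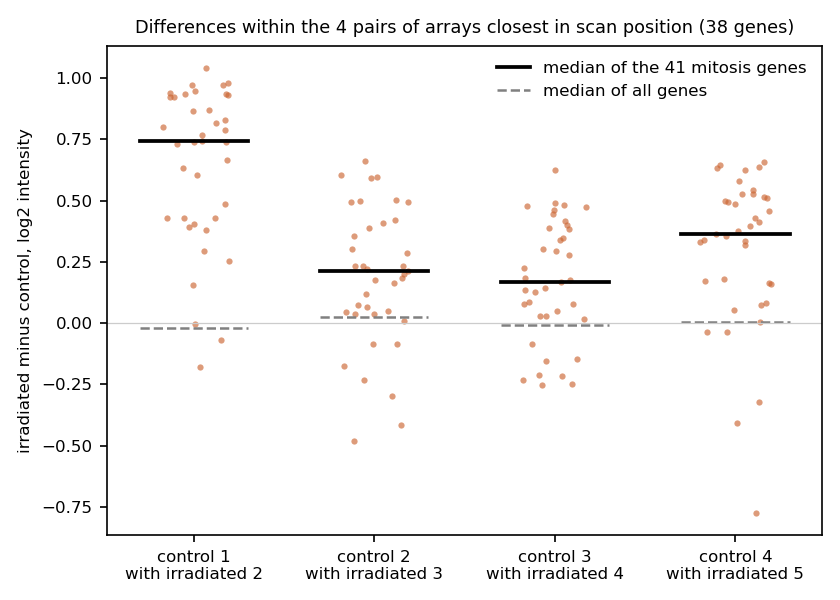
Difference between the irradiated and the control array within each of the 4 pairs of arrays closest in scan position, in log2 intensity. Each point is 1 of 38 mitosis genes well above background on all arrays, the solid bar is the median of all 41 genes and the dashed bar that of all genes. The solid bar is above 0 in every pair, from 0.17 to 0.74.

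The promoters of mitosis genes often carry 2 short sequences. The CHR (cell cycle genes homology region) is bound by MuvB complexes, which as DREAM repress transcription in resting cells and, with B-Myb and Foxm1, activate it in dividing cells. CCAAT boxes are bound by NF-Y. RefSeq promoter windows of build GRCm38.p6, from 250 bases before to 50 bases after the start, were at hand for 37 of the 41 genes, with 39 windows in all. The letters TTTGAA or TTCGAA of the CHR, on either strand, were found in 30 of the 39 windows, against 19.2% of all 32851 windows of the same length. The letters CCAAT, on either strand, were found in 29 of them, against 37.4% of all windows, and 26 held both, against 7.52%. At least 2 CCAAT matches were found in 21 windows, against 11.7%. Matches that overlap were each counted. The 9 genes without the CHR letters were Birc5, Ccnb1, Cenpe, Mad2l1, Melk, Nek2, Nuf2, Nusap1 and Pttg1, and 6 of these, all but Ccnb1, Cenpe and Nek2, lacked CCAAT too. A match is a description of the letters and not a site in use.

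The 150 bases before the start are shown for 5 genes with CHR letters there and for 2 without, Ccnb1 with CCAAT only and Pttg1 with neither. Capitals mark the matches on either strand, and each line gives the gene, its place in GRCm38.p6, its strand and the gene strand 5′ to 3′.
Cdk1, chr10:69352913-69353062, minus strand: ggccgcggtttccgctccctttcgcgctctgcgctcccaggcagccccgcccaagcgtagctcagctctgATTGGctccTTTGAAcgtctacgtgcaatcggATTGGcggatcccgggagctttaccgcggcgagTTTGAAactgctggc
Top2a, chr11:99024190-99024339, minus strand: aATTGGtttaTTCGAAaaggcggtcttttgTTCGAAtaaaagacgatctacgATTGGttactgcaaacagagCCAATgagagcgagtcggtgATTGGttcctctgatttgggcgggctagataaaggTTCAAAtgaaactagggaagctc
Kif11, chr19:37376232-37376381, plus strand: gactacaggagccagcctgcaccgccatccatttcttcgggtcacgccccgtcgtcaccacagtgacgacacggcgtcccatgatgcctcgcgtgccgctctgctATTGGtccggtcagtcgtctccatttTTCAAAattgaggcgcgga
Cdc20, chr4:118437344-118437493, minus strand: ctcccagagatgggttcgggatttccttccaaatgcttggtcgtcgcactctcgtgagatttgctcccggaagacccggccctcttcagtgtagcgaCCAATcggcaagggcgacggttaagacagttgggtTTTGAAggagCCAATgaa
Ube2c, chr2:164769779-164769928, plus strand: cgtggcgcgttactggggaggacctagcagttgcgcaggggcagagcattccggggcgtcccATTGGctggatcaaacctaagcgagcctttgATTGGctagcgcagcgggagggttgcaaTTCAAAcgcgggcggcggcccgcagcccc
Ccnb1, chr13:100786487-100786636, minus strand: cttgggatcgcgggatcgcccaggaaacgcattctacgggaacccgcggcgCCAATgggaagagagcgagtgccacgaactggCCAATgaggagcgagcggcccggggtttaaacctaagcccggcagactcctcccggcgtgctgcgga
Pttg1, chr11:43425982-43426131, minus strand: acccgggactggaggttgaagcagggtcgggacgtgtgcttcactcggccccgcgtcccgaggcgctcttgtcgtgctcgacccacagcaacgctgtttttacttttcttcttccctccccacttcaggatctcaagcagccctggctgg
Counted back from the base before the start as −1, the CHR letters begin at −71 and −15 in Cdk1, at −140, −120 and −23 in Top2a, at −19 in Kif11, at −18 in Cdc20 and at −29 in Ube2c. The CCAAT letters begin at −99 and −67 in Ccnb1.

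Among the proliferation markers, both genes had the higher irradiated mean. Mki67 encodes the Ki-67 protein, which coats mitotic chromosomes and marks cycling cells. Its log2 intensity was 11.71, 11.94, 11.48 and 11.34 on control arrays 1 to 4 and 12.21, 12.64, 11.85, 11.70 and 11.75 on irradiated arrays 1 to 5. Irradiated arrays 1 and 2 were above all control arrays and the other three were not. The difference was 0.42 (SE 0.21, 95% interval −0.04 to 0.87; exact permutation p = 0.127, smallest possible p 0.00794). Top2a, the topoisomerase that untangles sister chromatids, had control values of 8.53, 8.07, 7.98 and 8.16 and irradiated values of 9.12, 9.48, 8.43, 8.26 and 8.47. Again irradiated arrays 1 and 2 alone were above the controls, and the difference was 0.57 (SE 0.26, 95% interval −0.01 to 1.15, limma adjusted p = 0.516).

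The 3 mitotic cyclins and their kinase Cdk1 all had higher irradiated means, by 0.44 to 0.67 on the log2 scale, and all were higher on the irradiated array of all 4 pairs. Ccnb1, cyclin B1, which brings Cdk1 to the nucleus at the start of mitosis, measured 8.80, 8.83, 8.32 and 8.19 on the control arrays and 9.36, 9.60, 8.99, 8.49 and 8.83 on the irradiated arrays. Irradiated array 4 was within the control range and array 5 just above it. The Ccnb1 difference was 0.52 (SE 0.24, 95% interval −0.02 to 1.06). Its other 2 probes differed by 0.82 and 0.75. Cdk1 measured 8.08, 8.31, 8.46 and 7.59 on the control arrays and 8.85, 9.01, 8.91, 8.88 and 8.24 on the irradiated arrays. Of its irradiated values, 4 were above all control values, and that of array 5 lay among them. The difference for Cdk1 was 0.67, or 1.59-fold (SE 0.22, 95% interval 0.18 to 1.15; limma adjusted p = 0.292; exact permutation p = 0.0317). The probes of Cdk1 did not give the same direction: the difference was −0.15 for the second brightest, which was well above background on all arrays, and 0.62 for the third, which was not on every array.

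Of the mitotic kinases, Plk1, Aurka and Melk had higher irradiated means and Nek2 a difference of −0.015. Plk1, the polo kinase of spindle poles and mitotic entry, had control values of 10.36, 10.39, 9.98 and 10.03 and irradiated values of 10.57, 11.18, 10.15, 10.13 and 10.39. Irradiated array 2 lay well above the rest, arrays 3 and 4 lay within the control range, and the difference of 0.29 had a 95% interval of −0.18 to 0.77. Aurka, the Aurora kinase of the spindle poles, was named after its values were seen. Its control values were 9.13, 9.45, 8.78 and 8.93 and its irradiated values 9.83, 10.07, 9.94, 9.27 and 9.51. All irradiated arrays but array 4 were above every control array. The Aurka difference was 0.65 (SE 0.20, 95% interval 0.21 to 1.09, limma adjusted p = 0.25, exact permutation p = 0.0317).

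In the chromosomal passenger complex, which corrects faulty attachments and later guides cytokinesis, Birc5 and Cdca8 had higher irradiated means and Aurkb gave no usable difference. Birc5, survivin, measured 11.60, 11.52, 11.06 and 10.9998 on the control arrays and 12.11, 12.58, 11.70, 11.40 and 11.53 on the irradiated arrays. Irradiated arrays 1, 2 and 3 were above every control array, and arrays 4 and 5 were not. Its difference was 0.57 (SE 0.24, 95% interval 0.02 to 1.11, limma adjusted p = 0.471), and its other 2 probes differed by 0.78 and 0.75. Aurkb, the kinase of the complex, measured 4.11, 3.90, 3.80 and 1.88 on the control arrays and 1.90, 3.64, 5.86, 3.59 and 1.90 on the irradiated arrays. It was well above background on 1 of 4 control and 2 of 5 irradiated arrays, its difference of −0.04 had a 95% interval of −1.84 to 1.75, and the sign changed with scaling to the 75th percentile and in the authors' normalized table. No direction is given for it.

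The 4 spindle checkpoint genes had differences of 0.02 to 0.94. Bub1, a checkpoint kinase at the kinetochore, had control values of 7.52, 7.66, 6.91 and 7.60 and irradiated values of 8.06, 7.91, 7.36, 6.68 and 7.19. Irradiated arrays 1 and 2 were above all controls, but array 4 was the lowest of the 9 arrays, and the difference of 0.02 (SE 0.30, 95% interval −0.64 to 0.68) turned negative with scaling to the 75th percentile, in the authors' normalized table and, at −0.31, without control array 3 and irradiated array 1. Bub1b, which encodes the checkpoint protein BubR1, differed by 0.46, with a limma adjusted p of 0.464 and an exact permutation p of 0.0397. For Bub1b, 4 of 5 irradiated arrays were above all controls. Mad2l1, whose protein binds Cdc20 at unattached kinetochores, differed by 0.20. Ttk, the kinase Mps1 that starts the checkpoint signal, had a fitted difference of 0.94, on values mostly near background. Its control values were 3.43, 3.11, 2.58 and 2.86 and its irradiated values 4.59, 4.66, 4.30, 2.90 and 3.23. Ttk was not well above background on any control array and was so on 1 of 5 irradiated arrays, and in the authors' normalized table the sign was reversed, at −0.33. No fold is therefore given for it (limma adjusted p = 0.469).

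All 6 genes of the centromere and kinetochore had higher irradiated means, by 0.27 to 0.84 on the log2 scale. Nuf2, a subunit of the Ndc80 complex that grips microtubules, measured 6.36, 6.24, 5.83 and 5.71 on the control arrays and 7.60, 7.28, 6.90, 6.24 and 6.34 on the irradiated arrays. Irradiated arrays 1, 2 and 3 were above all controls, and arrays 4 and 5 fell inside the control range. The difference was 0.84, or 1.79-fold (SE 0.31, 95% interval 0.15 to 1.53, limma adjusted p = 0.366), and no other of the 38 genes well above background on all arrays had a larger one. A second Nuf2 probe differed by −0.15 and was not well above background on any array. Ndc80, its partner in the same complex, measured 7.16, 7.20, 7.02 and 6.93 on the control arrays and 7.74, 7.95, 7.27, 7.50 and 7.39 on the irradiated arrays. All 5 irradiated values were above all control values, the nearest being irradiated array 3 and control array 2. The Ndc80 difference was 0.49 (SE 0.18, 95% interval 0.10 to 0.88; exact permutation p = 0.0159; limma adjusted p = 0.346). Spc25, another subunit, differed by 0.64 and was above all controls on 4 of 5 irradiated arrays. Cenpa, the histone variant of centromeres, differed by 0.27, and Cenpe, a kinetochore motor, by 0.54. Cenpf, a large kinetochore protein, measured 2.27, 3.67, 2.45 and 2.09 on the control arrays and 4.98, 4.21, 3.21, 2.51 and 2.17 on the irradiated arrays. Because Cenpf was not well above background on any of the 9 arrays, no fold is given.

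The 7 kinesins, motors that move chromosomes and slide spindle microtubules, all had higher irradiated means, from 0.23 for Kif15 to 0.73 for Kif2c. For Kif15 the direction rested on control array 3, the lowest of the 9, since its difference was −0.13 without that array and −0.33 without control array 3 and irradiated array 1. Kif11, which pushes the spindle poles apart, measured 7.12, 7.36, 6.35 and 6.77 on the control arrays and 7.70, 8.16, 7.39, 6.83 and 7.11 on the irradiated arrays. Irradiated arrays 1 and 2 were clearly above all controls, array 3 by a small margin, and the remaining ones lay within the control range. Its difference was 0.54 (SE 0.30, 95% interval −0.13 to 1.21, limma adjusted p = 0.63). Kif23, a motor of the spindle midzone, differed by 0.53, and Kif2c, which takes microtubules apart at the centromere, by 0.73, with 4 of 5 irradiated arrays above all controls for each. Of the 7 kinesins, 5 were higher on the irradiated array of all 4 pairs.

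Spindle assembly and midzone genes ranged from −0.24 to 0.58. Tpx2, the activator of Aurka, differed by 0.58, Prc1, which bundles midzone microtubules, by 0.46, and Nusap1, a spindle microtubule binder, by 0.35. Hmmr, a hyaluronan receptor that also binds spindle microtubules, had the lowest difference of the 41 genes. Its control values were 10.87, 10.21, 10.76 and 10.76 and its irradiated values 10.34, 10.87, 9.79, 10.61 and 10.44. Irradiated array 2, high for nearly all other mitosis genes, was level with the highest control for Hmmr, and irradiated array 3 was the lowest of the 9. The difference was −0.24 (SE 0.22, 95% interval −0.72 to 0.24, limma adjusted p = 0.812).

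The anaphase-promoting complex and its substrates gave differences of −0.17 to 0.42. Cdc20, the activator of the complex in mitosis, measured 11.08, 10.97, 10.64 and 10.52 on the control arrays and 11.51, 11.37, 10.98, 10.39 and 10.67 on the irradiated arrays. Irradiated arrays 1 and 2 were above all controls and array 4 was below all of them. The Cdc20 difference was 0.18 (SE 0.23, 95% interval −0.34 to 0.71), and −0.0018 without control array 3 and irradiated array 1. Ube2c, the ubiquitin-conjugating enzyme of the complex, differed by 0.41, and Cdca3, a trigger of mitotic entry that the complex degrades, by 0.42. Pttg1, securin, which holds separase inactive until anaphase, measured 14.87, 15.09, 15.06 and 14.93 on the control arrays and 14.72, 14.69, 14.91, 14.85 and 14.93 on the irradiated arrays. Irradiated arrays 1, 2 and 4 were below all controls, so that the arrays highest for most of the list were the lowest for Pttg1. Its difference was −0.17 (SE 0.08, 95% interval −0.35 to 0.02, limma adjusted p = 0.576), and −0.09 on its other probe. Pttg1 is the gene whose printed promoter holds neither motif, whereas Birc5 and Nuf2, which lacked both as well, had differences of 0.57 and 0.84.

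The 3 genes of cytokinesis had higher irradiated means. Ect2, the exchange factor that switches on RhoA at the division plane, differed by 0.60 (SE 0.21, 95% interval 0.14 to 1.06). Its limma adjusted p was 0.324 and its exact permutation p 0.0317, with 4 of 5 irradiated arrays above all controls. Anln, a scaffold of the contractile ring, differed by 0.18, and Racgap1, the partner of Kif23 in centralspindlin, by 0.17. At an exact permutation p under 0.05, 5 genes of the 41 were higher, namely Ndc80, Cdk1, Aurka, Ect2 and Bub1b, against 6.91% of all genes, and these p-values were not adjusted for the number of genes.

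In all, 38 of the 41 genes were well above background on every array, the exceptions being Aurkb, Ttk and Cenpf. Other probes, 16 in number, were present for 12 of the genes. Of these 16, 13 had the higher irradiated mean, with a median difference of 0.49, and 0 passed the adjusted threshold in limma. The 3 with a lower irradiated mean belonged to Cdk1, Nuf2 and Pttg1.

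The list was then set beside other genes of the division program, in lists also chosen with earlier results of these data known. Of 62 further mitosis genes, 60 were on the arrays. Of these, 58 had the higher irradiated mean, against 51.9% of all genes, with a median difference of 0.52. In limma 0 passed the adjusted threshold, against 0.416% of all genes. At an unadjusted p under 0.05 in limma, 25 were higher and 0 lower, against 7.37% and 4.98% of all genes. With the scan pair as a fixed block 2 passed, Gtse1 and Cks1b, both higher, against 3.82% of all genes. Cks1b differed by 0.53 in that fit (limma adjusted p = 0.0369, and 0.355 without the block). In the fit without the block, the smallest p belonged to Gtse1 and Ncapg2. Gtse1 encodes a microtubule-bound protein of G2 that p53 induces and that restrains p53, and Ncapg2 a subunit of condensin II. Gtse1 measured 6.20, 6.57, 6.21 and 6.04 on the control arrays and 8.27, 8.53, 8.15, 7.86 and 6.88 on the irradiated arrays. Every irradiated value was above every control value, and the difference was 1.68, or 3.20-fold (SE 0.31, limma adjusted p = 0.0635; 1.60 and 0.0473 with the scan pair as a fixed block, and 1.63 and 0.00426 with it as a random block). Ncapg2 measured 8.67, 8.79, 8.57 and 8.47 and then 9.47, 9.34, 9.02, 9.004 and 9.03, also without overlap. Its difference was 0.55 (limma adjusted p = 0.174, 0.0763 with the scan pair as a fixed block and 0.0151 as a random block). In that random block fit, 27 of the 134 genes on the lists of division genes passed in either direction. Among them were the genes given here with a p of that fit. Of all 39303 probes, 2899 passed in either direction, and 5.65% of all genes passed and were higher.

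Of 34 DNA replication genes, 31 had the higher irradiated mean, against 51.9% of all genes. Their median difference was 0.26, and 0 passed the adjusted threshold, against 0.416% of all genes. At an unadjusted p under 0.05 in limma, 7 were higher and 0 lower, against 7.37% and 4.98% of all genes. Fen1, the flap nuclease of lagging strands, measured 11.81, 11.74, 11.88 and 11.61 on the control arrays and 12.10, 12.23, 12.01, 12.11 and 11.81 on the irradiated arrays. Of its irradiated values, 4 were above all controls. The Fen1 difference was 0.29 (limma adjusted p = 0.325, 0.0789 with the scan pair as a fixed block and 0.0245 as a random block). Gins2, a subunit of the replicative helicase, measured 7.80, 7.20, 7.40 and 7.26 and then 8.78, 8.54, 8.23, 7.56 and 7.79, with irradiated arrays 4 and 5 inside the control range. Its difference was 0.76 (limma adjusted p = 0.326, 0.12 in the fixed block fit and 0.0492 in the random block fit). Pcna, the sliding clamp, differed by 0.20, and Mcm2, a helicase subunit, by 0.37, with limma adjusted p-values of 0.656 and 0.55.

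Of 14 transcription factors of the division program, 11 had the higher irradiated mean, against 51.9% of all genes. Their median difference was 0.20, and 0 passed the adjusted threshold, against 0.416% of all genes. At an unadjusted p under 0.05 in limma, 3 were higher and 1 lower, against 7.37% and 4.98% of all genes. Myc, a driver of growth and cell cycle entry, measured 9.17, 8.72, 9.01 and 8.69 on the control arrays and 9.53, 9.58, 10.17, 9.62 and 9.55 on the irradiated arrays. All irradiated values were above all control values, and the difference was 0.79 (SE 0.17, limma adjusted p = 0.0999, and 0.0106 in the random block fit). With the scan pair as a fixed block, 0 of these 14 genes passed, Myc included, against 3.82% of all genes. E2f1, which opens S phase, measured 9.92, 10.10, 9.77 and 9.92 and then 10.60, 10.42, 10.26, 10.13 and 10.34, without overlap. Its difference was 0.42 (limma adjusted p = 0.222, 0.083 in the fixed block fit and 0.0204 in the random block fit). Foxm1, the activator of G2 and M genes named above with the CHR, measured 7.98, 8.08, 7.69 and 7.59 on the control arrays and 8.58, 8.71, 8.31, 7.58 and 7.74 on the irradiated arrays. It was high on irradiated arrays 1, 2 and 3 and within or below the control range on arrays 4 and 5, and its difference of 0.35 had a limma adjusted p of 0.75. Mybl2, which encodes B-Myb, differed by 0.05 (limma adjusted p = 0.971), with the sign reversed under scaling to the 75th percentile and in the authors' normalized table.

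Of 26 inhibitors of division, 17 had the higher irradiated mean, against 51.9% of all genes. Their median difference was 0.07, and 1 gene, Cdkn1a, passed the adjusted threshold, against 0.416% of all genes. At an unadjusted p under 0.05 in limma, 6 were higher and 2 lower, against 7.37% and 4.98% of all genes. With the scan pair as a fixed block, 3 higher and 1 lower passed the adjusted threshold, against 3.82% of all genes. Cdkn1a encodes p21, the inhibitor of cyclin-dependent kinases that p53 induces after DNA damage. Its control values were 12.25, 11.89, 10.90 and 11.74 and its irradiated values 13.89, 14.29, 13.61, 12.98 and 13.21. All irradiated values were above all control values. Cdkn1a rose by 1.90 on the log2 scale, or 3.73-fold (SE 0.31, limma adjusted p = 0.044; exact permutation p = 0.00794, the smallest possible). It was 1.83 higher, with a limma adjusted p of 0.0218, with the scan pair as a fixed block and irradiated array 1 left out. The adjusted p was 0.0839 without control array 3 and irradiated array 1, 0.0504 in the authors' normalized table, and between 0.0401 and 0.138 with 1 array left out, missing the threshold in every such fit but that without irradiated array 1. Trp53, the gene of p53 itself, measured 8.54, 7.97, 7.27 and 8.27 on the control arrays and 8.31, 8.67, 8.23, 8.003 and 8.44 on the irradiated arrays, with a difference of 0.32 (limma adjusted p = 0.776). On the arrays where the mitosis genes were highest, irradiated 1 and 2, Cdkn1a was highest as well.

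**Figure D5:**
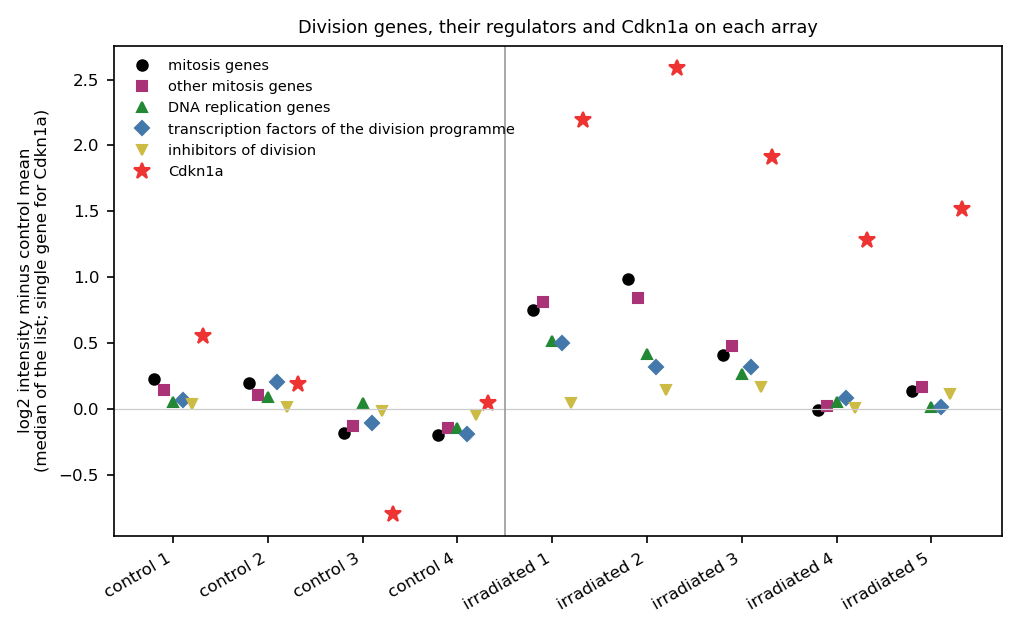
Median of each gene list on each array, as log2 intensity minus the mean of the 4 control arrays, with Cdkn1a alone as stars. Mitosis, other mitosis, replication and transcription factor genes stand highest on irradiated arrays 1, 2 and 3, the inhibitors stay near 0 on all arrays, and Cdkn1a is above every control array on all 5 irradiated arrays.

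Markers of other cells also differed from array to array. Over 14 lists of cell type markers, the median difference ran from −1.93 for skeletal muscle to 0.64 for macrophages. The skeletal muscle value rested on control array 3, since it was −0.10 without that array, and without control array 3 and irradiated array 1, an alternative chosen after seeing the data, the 14 medians ran from −1.01 for neutrophils to 0.59 for macrophages, with cardiac muscle at −0.41 in place of −1.26. Each list had 5 or 6 markers on the arrays. No marker passed the adjusted threshold in limma (0 called, against 0.416% of all genes). At an unadjusted p under 0.05 in limma, 6 markers were higher and 9 lower, against 7.37% and 4.98% of all genes. With the scan pair as a fixed block 4 markers passed, against 3.82% of all genes. Adgre1 (macrophages) and Pdpn (type I alveolar cells) were higher, and Slc34a2 (type II alveolar cells) and Cyp2f2 (airway) were lower. In the fit without the block, all 5 type I markers on the arrays had the higher irradiated mean (median difference 0.29), while 4 of 6 type II markers and 4 of 5 airway markers had the lower mean (medians −0.12 and −0.22). Of 7 macrophage markers, 6 were on the arrays, all well above background, and 5 had the higher irradiated mean, Marco being the exception. Their summed intensity ranged from 151319 to 354395 in controls and from 212561 to 381194 in irradiated lung. Relative to the control mean, the macrophage markers averaged 0.42, 0.04, −0.31 and −0.15 on control arrays 1 to 4 and 0.30, 0.29, 0.44, 0.36 and 0.39 on the irradiated arrays. Control arrays 1 and 2 were thus above control arrays 3 and 4 for macrophage markers and for mitosis genes. Irradiated arrays 4 and 5 were level with the other irradiated arrays for macrophage markers and below them for mitosis genes. Of 7 neutrophil markers, 6 were on the arrays, all with lower irradiated means, and Ngp was not well above background on every array. Their sum ranged from 257988 to 440799 in controls and from 203331 to 338295 in irradiated lung, with the lowest values on irradiated arrays 4 and 5. All 6 B cell markers were on the arrays, well above background, and had lower irradiated means, with a median difference of −0.42 and 3 at an unadjusted p under 0.05 in limma. The summed intensity of the B cell markers ranged from 28748 to 47422 in controls and from 25425 to 31653 in irradiated lung, and they averaged −0.44 to −0.35 relative to the control mean on all 5 irradiated arrays. Other lists also differed between irradiated arrays 1 to 3 and arrays 4 and 5, but stood otherwise to the controls than the mitosis genes. For natural killer and erythroid markers, irradiated arrays 1 to 3 lay within the control range. For fibroblast markers, array 2 alone of these lay above it. Relative to the control mean, the 5 natural killer cell markers averaged 0.04, −0.06 and 0.13 on arrays 1 to 3 and −0.67 and −0.54 on arrays 4 and 5, with a summed intensity of 21414 to 30575 in controls and 15554 to 35013 in irradiated lung. Fibroblast markers averaged 0.12, 0.33 and 0.04 and then −0.19 and −0.25 (summed 141217 to 192463 and 135899 to 232310). The 5 erythroid markers on the arrays averaged 0.02, −0.16 and −0.09 and then −1.22 and −0.63 (summed 170770 to 470749 and 176896 to 502322). Plasma cell markers took another course, at −1.09, −0.03, 0.63, 0.74 and 0.68 on irradiated arrays 1 to 5 (summed 62551 to 121188 and 61534 to 197104). T cell markers averaged −0.58, 0.40, 0.42, −0.07 and −0.34 on these arrays, lowest on irradiated array 1. Endothelium markers averaged 0.11, −0.13, −0.16, −0.38 and −0.19, and neutrophil markers −0.01, −0.88, −0.47, −1.62 and −1.37. The part of these cells in the values of the mitosis genes was not tested.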

How the data were processed

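Lung RNA pools of 4 control and 5 irradiated samples were measured on single-color Agilent arrays with 44397 spots, 43020 of them for 39429 gene probes. The authors deposited the Feature Extraction output as intensity values that were corrected for background and not normalized between arrays, and a normalized intensity table whose values are empty for dim spots. The scanner intensity was used, and the table was an alternative. Software version and annotation are not given in the sources used here. The number of arrays limits the precision.

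Control and outlier spots were left out. A probe was kept where 4 or more arrays gave it a signal above 1.4-fold its local background, which 39303 did. Intensities were put on the log2 scale, quantile normalized and averaged over spots of a probe. Accessions gave a symbol for 26055 probes through a RefSeq table (GRCm38.p6, used for names and promoters), and each gene was its brightest probe. The 2 groups were compared in limma 3.58.1 (R 4.3.3), using an intensity trend and Benjamini-Hochberg adjustment over all probes (threshold 0.05), and single genes by an exact two-sided permutation test over the arrays. No covariate was used. The scripts were tested on simulated data.

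The members and lists were chosen with earlier results of these data known. All 41 genes were accounted for. Values on every array were given for 10 fixed examples of the roles and for the 3 genes with the largest difference in each direction. They were also given for some, not all, other genes that a count or test singled out, while Ect2, Bub1b and Kif23 have their differences only. From each list of division genes, those past the threshold or the 2 with the smallest p without a block were named. Cdkn1a, Trp53, Foxm1, Mybl2, Pcna and Mcm2 were always named. Replicate numbers did not pair the arrays: the correlation of the deviations of same-numbered arrays was −0.17 to 0.06. The alternatives changed the background correction, scaling, filter, probe choice, variance model, threshold, blocks and arrays left out.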

Additional observations from a re-analysis of the deposited data

Results flagged for a closer look

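Single arrays lay far from the others of their group, by Dixon's criterion for small groups, in 5 of 116 groups tested, over the genes named and the medians of the mitosis list and the lists of division genes (4.31%, where chance gives about 5%). All values are log2 intensities, and none of the results was tested further. Cdk1 was 8.24 on irradiated array 5, against 8.85 to 9.01 on the other irradiated arrays. Aurkb was 1.88 on control array 4, against 3.80 to 4.11 on the other control arrays, a gene that was well above background on 1 of 4 control arrays. Hmmr was 10.21 on control array 2, against 10.76 to 10.87. Racgap1 was 9.66 on control array 4, against 10.03 to 10.10. Myc was 10.17 on irradiated array 3, against 9.53 to 9.62 on the other irradiated arrays.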

How the results depend on the processing

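Under the alternatives run, 0 mitosis genes were past the adjusted threshold except for 5 when scan pairs entered as a random block. The median difference of the mitosis genes stayed between 0.30 (the authors' normalized table) and 0.59 (without irradiated array 4), and 35 to 39 genes had the higher irradiated mean where all 41 were tested. Of the single mitosis genes, 863 comparisons with an alternative kept direction and side of the threshold, 30 changed direction and 5 passed the threshold. The directions that changed were these. Aurkb was 0.11 with normexp correction, 0.093 with scaling to the 75th percentile, 0.095 with the filter on all 9 arrays, 0.24 in the authors' table, 0.33 with scan pairs as a fixed block, 0.18 as a random block, 0.13 with array weights and 0.45 without control array 3 and irradiated array 1, an alternative chosen after seeing the data. Bub1 was −0.14 with scaling to the 75th percentile, −0.012 in the authors' table, −0.14 and −0.075 with the fixed and random scan pair block, and −0.31 without those 2 arrays. Ttk was −0.33 in the authors' table. Without those 2 arrays Kif15 was −0.33 and Cdc20 −0.0018. Mybl2 was −0.0083 with scaling to the 75th percentile and −0.069 in the authors' table. With 1 array left out, Nek2 ranged from −0.19 to 0.13, Aurkb from −0.67 to 0.33, Bub1 from −0.15 to 0.21, Kif15 from −0.13 to 0.53 and Mybl2 from −0.054 to 0.12.

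Counts over all probes and over the 134 genes of the lists of division genes moved more. Against 131 probes and 1 list gene, there were 197 and 2 with the background filter on all 9 arrays, 206 and 2 with the filter on spots well above background, 44 and 0 in the authors' table, 44 and 0 with no intensity trend, 5 and 0 at the stricter threshold of 0.01, 1099 and 6 with scan pairs as a fixed block, 2899 and 27 with them as a random block, and 0 list genes without control array 3 and irradiated array 1. With 1 array left out the counts were 5 to 485 and 0 to 3, with 5 probes without control array 3 and 485 without irradiated array 1. The fit with scan pairs as a fixed block also left out irradiated array 1. The share of lower probes among those called was 42.7%, against 58.1% with scaling to the 75th percentile, 75% in the authors' table, 29.5% with no intensity trend, 20% at the stricter threshold and 12.5% (without control array 4) to 57.1% (without control array 1) with 1 array left out. The number of mitosis genes at an unadjusted p under 0.05 was 13, and 1 in the authors' table. The cause of these changes was not tested. A replicate block on the numbers in the labels, which do not pair the arrays, gave 1 probe and 0 list genes, 25 mitosis genes at an unadjusted p under 0.05 and an Aurkb difference of 0.33. The 3 genes not well above background on every array, Aurkb, Ttk and Cenpf, are limited by their signal.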
